A study of Rattus norvegicus with 12 samples.

Results

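Cartilage of the rat knee after sham surgery, the control operation, was compared between 8 and 2 weeks. The comparison rests on 6 of the 12 arrays of the study, namely the 3 labelled sham at 8 weeks and the 3 labelled sham at 2 weeks. The other 6 arrays come from rats operated to induce osteoarthritis (OA), 3 at 2 weeks and 3 at 8 weeks, and serve here as a second reading of the same interval. All 12 are total RNA of knee articular cartilage. Strain, sex, age and any treatment besides the surgery are not given in the sources used here. The labels do not say whether the 3 arrays of a group come from separate animals, so p-values measure only the spread between these samples, which may be technical.

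Articular cartilage is made by 1 cell type, the chondrocyte, which secretes a network of type II, IX and XI collagen filled with the proteoglycan aggrecan. Adult cartilage has no vessels and renews its collagen very slowly, while proteases such as stromelysin and the aggrecanases turn over the rest of the matrix. Sham cartilage was operated without the injury that leads to OA, and it is the baseline against which the OA arrays of each time are read.

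Few abundant transcripts of cartilage changed between 2 and 8 weeks after sham surgery. Mmp3 and Adam17, both proteases, were the clearest exceptions and fell. Tgfa, a ligand of the EGF receptor, fell on its brighter probe set, while its dimmer one rose. Most other genes past the test had a low array signal, and the clock gene Per1 and the vessel gene Plvap are examples. Values are log2 array signals, so that a difference of 1 is a factor of 2. A gene was tested if a probe set for it exceeded log2 4 in at least 3 of the 6 sham arrays, and its brightest probe set stands for it. A gene counts as changed, or called, where limma's p, adjusted by Benjamini-Hochberg over all probe sets tested, lay under 0.05. Errors beside differences are limma's standard errors (SE), with 3 arrays per group.

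Of 9150 genes, 1365 changed by this test (14.9%). They comprise 905 that were higher at 8 weeks (9.89%) and 460 that were lower (5.03%). With added quantile normalization the split was 691 higher and 620 lower, so the excess of rises depends on the scaling. The median difference over all genes was 0.08, and it was 0.01 after quantile normalization. The median called rise was 0.90 and the median called fall was -0.93. Another tested probe set existed for 84 of the 905 rises, and one was called higher for 42 of these genes and lower for 11. For the 460 falls it existed for 37, with one called lower for 7 and higher for 11. The direction of a called gene, above all of a fall, can thus depend on the probe set. The 8-week arrays did not overlap the 2-week arrays for 31.3% of all genes, and with 3 against 3 arrays a single exact permutation test cannot go below p = 0.1.

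The calls were concentrated at low signal. Among 1165 genes with a mean under log2 6 over the sham arrays, 57.3% were called, and the share fell to 34.3% at 6 to 8 and 9.49% at 8 to 10. At 10 to 12 it was 1.69%, and among the 1865 genes at 12 or more it was 0.804%, or 15 genes. The median absolute difference fell in the same order, from 0.83 under log2 6 to 0.10 at 12 or more, while the median SE stayed between 0.10 and 0.17. The filter itself adds to this, because 325 genes exceeded log2 4 in the 3 arrays of 1 time only, and these had to differ to pass (96.3% were called). Among genes above log2 4 in all 6 arrays, the shares were 48.6% under log2 6 and 34.7% at 6 to 8, or 39.3% under 8.

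**Figure D1:**
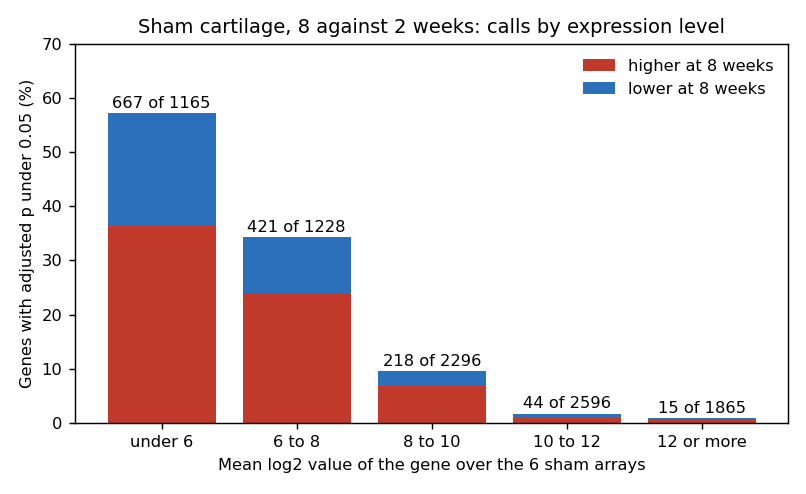
Share of genes called between 8 and 2 weeks in sham cartilage (percent, linear axis) in 5 ranges of the mean log2 value over the 6 sham arrays, with red for higher and blue for lower at 8 weeks and the counts above each bar. The share falls from 57.3% of genes under log2 6 to 0.804% at 12 or more.

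Probe sets of the same gene showed the same contrast, within limits set by the filter. For 305 genes the brightest probe set lay at log2 10 or more and another kept one lay under 6. The bright probe set was called for 6 of these genes and the dim one for 174 (57%), of which 122 were higher and 52 lower at 8 weeks. Both were called for 2 genes. Dim probe sets that exceeded log2 4 only at 2 weeks or only at 8 weeks had to differ to pass the filter. They were not set apart here, so the filter may raise the 57%, and by how much was not tested. Where the dim probe set was called, the bright one had the same sign in 101 of 174 genes (58%). Clock, a core activator of the circadian oscillator, has 3 kept probe sets, whose differences were 0.20 at a mean of 12.96 at 2 weeks, 0.21 at 10.17 and 2.81 at 2.65. The dimmest Clock probe set had a 2-week mean under log2 4, so the filter may have kept it because it differed. Whether such dim probe sets read other transcripts of the gene was not tested.

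Probe sets near the floor of the signal were called as well. Of 14833 probe sets that stayed at or under log2 4 in all 6 arrays, 28.9% were called when all probe sets were fitted together, with a median absolute difference of 0.06. The control probe set for 5S ribosomal RNA lay between 1.65 and 2.28 in the sham arrays of 2 weeks and between 3.48 and 4.15 in those of 8 weeks. In the OA arrays it lay between 1.65 and 1.67 at 2 weeks and between 4.16 and 4.88 at 8 weeks. The spiked BioB control lay between 4.80 and 5.07 at 2 weeks and between 5.97 and 6.38 at 8 weeks in sham. Means over groups of spiked controls overlapped between the times in sham, and their single members were not read apart. The mean of the hybridization spikes, a group defined to take in other BioB probe sets, was 10.94 to 11.04 at 2 weeks and 10.71 to 11.37 at 8 weeks. That of the poly-A spikes was 11.32 to 11.41 and 11.38 to 11.67. The 3-prime minus 5-prime difference of Gapdh, a measure of RNA integrity, overlapped, with 1.24 to 1.42 at 2 weeks and 1.28 to 1.39 at 8 weeks. For beta-actin this difference was far larger and overlapped too, with 8.05 to 8.34 at 2 weeks and 7.72 to 8.66 at 8 weeks. No label says when the arrays were processed. If the arrays of the 2 times were processed apart, time after surgery and processing cannot be told apart in any difference reported here.

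The genes with a bright signal that changed were few, and the 7 described next, except those of the lists below, were picked after their values were seen. Mmp3, stromelysin-1, which cleaves proteoglycans and activates other metalloproteinases, read 14.91, 14.69 and 14.59 at 2 weeks and 13.48, 13.18 and 13.40 at 8 weeks after sham surgery. All 8-week arrays lay below all 2-week arrays. Mmp3 fell by 1.37 ± 0.13 on the log2 scale (SE, n = 3 per group, limma adjusted p = 0.00089). In the OA arrays Mmp3 read 14.83, 14.95 and 14.95 at 2 weeks and 14.69, 14.88 and 15.20 at 8 weeks, a difference of 0.01.

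Tgfa encodes transforming growth factor alpha, a membrane-bound ligand of the EGF receptor. Its values were 10.82, 10.82 and 10.91 at 2 weeks and 9.43, 9.47 and 9.44 at 8 weeks in sham, with no overlap. Tgfa fell by 1.40 ± 0.07 (limma adjusted p = 8.37e-05). A dimmer probe set of Tgfa went the other way, from a mean of 4.19 to 5.63 (adjusted p = 0.0279), and the mean over both probe sets differed by 0.02. In the OA arrays the brighter probe set rose by 1.52.

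Adam17, the sheddase that releases TGF-alpha and tumour necrosis factor from the membrane, read 11.91, 11.92 and 12.18 at 2 weeks and 11.00, 10.96 and 11.21 at 8 weeks in sham. The groups did not overlap, and Adam17 fell by 0.95 ± 0.12 (limma adjusted p = 0.00292). The OA arrays differed by 0.10 over the same interval (adjusted p = 0.69). Tgfa, Mmp3 and Adam17 each kept their call when any 1 of the 6 sham arrays was left out.

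Mcl1, which protects cells from apoptosis, was at 13.11, 12.90 and 13.01 and then at 11.88, 12.30 and 12.18, and fell by 0.89 ± 0.13 (limma adjusted p = 0.00651). In OA Mcl1 fell by 1.18. P3h4, a partner of the enzymes that modify collagen lysines, fell by 1.14 ± 0.15 (adjusted p = 0.00397) on its brightest probe set. None of its 4 other kept probe sets was called, and the mean over all 5 differed by -0.16 (adjusted p = 0.54).

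Col15a1, a collagen of basement membranes, read 13.06, 12.76 and 13.13 at 2 weeks and 13.64, 13.66 and 13.59 at 8 weeks. Col15a1 rose by 0.64 ± 0.12 (limma adjusted p = 0.0134), and without sham 8 weeks replicate 2 the adjusted p was 0.0516. The zinc transporter gene Slc39a7 rose by 0.79 ± 0.14 (adjusted p = 0.0135), from 12.09, 11.63 and 12.08 to 12.68, 12.77 and 12.73. Its adjusted p was 0.0531 to 0.054 without sham 8 weeks replicate 2 or 3.

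**Figure D2:**
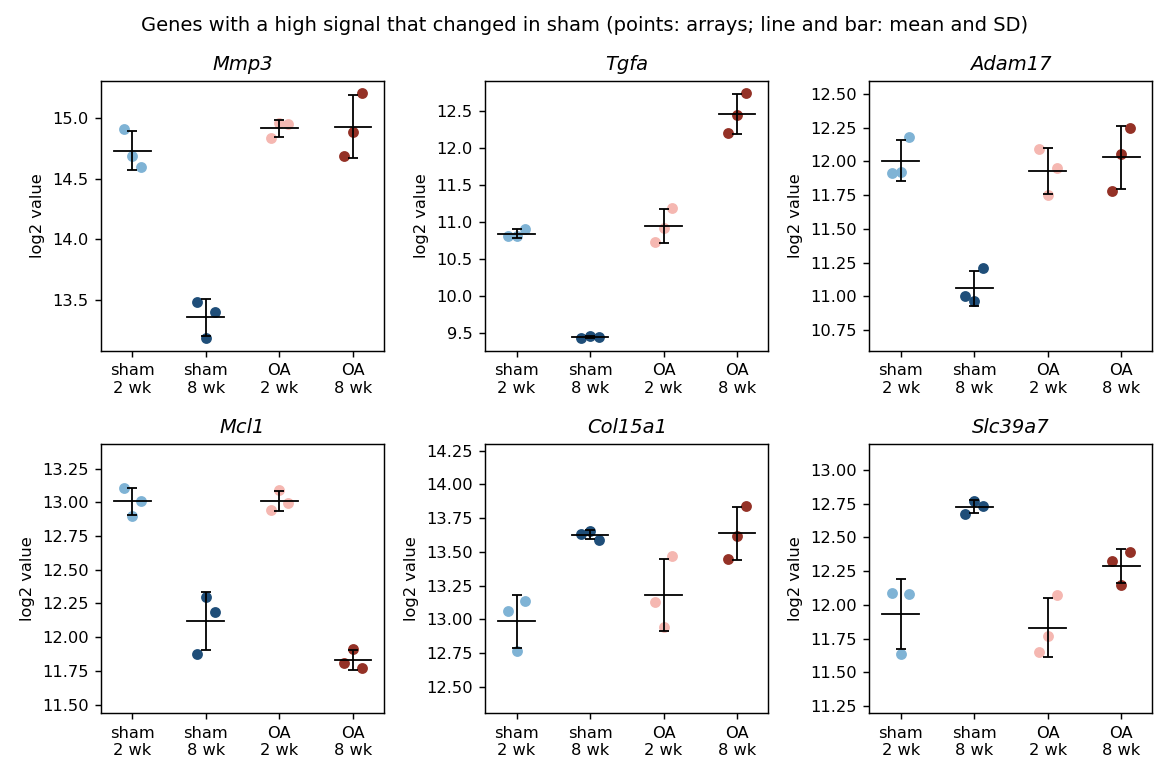
Log2 values (linear axes) of 6 genes in each of the 12 arrays, by surgery and weeks after it, with a line and bar for the mean and SD of 3 arrays. The differences between 8 and 2 weeks in sham are -1.37 for Mmp3, -1.40 for Tgfa, -0.95 for Adam17 and -0.89 for Mcl1, and Mcl1 differs by -1.18 in OA.

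None of the 7 cartilage collagens tested was called. Col2a1, the type II collagen that forms the bulk of the network, read 15.99, 16.00 and 16.08 at 2 weeks and 16.27, 16.17 and 16.16 at 8 weeks, a difference of 0.18 ± 0.07 (limma adjusted p = 0.187). The 8-week arrays lay above the 2-week arrays, by less than the test required. With no filter on low probe sets its adjusted p was 0.0426. The type IX genes Col9a1, Col9a2 and Col9a3, whose product coats the fibrils, differed by -0.14, 0.14 and -0.22. Col11a1 and Col11a2, which set fibril diameter, differed by -0.35 and -0.26, and Col10a1, the collagen of hypertrophic chondrocytes, by 0.05.

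The median difference of the 7 collagens was -0.14, beside 0.08 over all genes tested. In the OA arrays 4 of the same 7 were called lower, beside 11.1% of all genes. Their OA median was -0.64, beside 0.04 over all genes. Col9a3, for example, differed by -0.79 in OA (adjusted p = 0.0031) and by -0.22 in sham (adjusted p = 0.239). All 7 collagens had a signal at which few genes of any kind were called, so their count of 0 is near that background.

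Of 26 cartilage proteoglycans and adaptor proteins, 0 were called, with 19 differences above 0 and 7 below. Their median level was 14.22, and 0.804% of all genes at log2 12 or more were called, so the count of 0 is near that background. Over all 9150 genes, 5875 differences lay above 0 and 3275 below. Acan, the core protein of aggrecan, read 14.12, 14.10 and 14.29 at 2 weeks and 14.41, 14.14 and 14.20 at 8 weeks, and the groups overlapped (difference 0.08 ± 0.11). Comp, which bridges collagen fibrils, differed by 0.06, and Hapln1, the link protein that holds aggrecan on hyaluronan, by -0.09. Cnmd, chondromodulin, which keeps vessels out of cartilage, ranged from 11.19 to 13.18 at 2 weeks and from 11.23 to 12.88 at 8 weeks. Its difference was -0.12 ± 0.68.

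None was called either among 17 genes of collagen processing, 11 chondrocyte transcription factors and receptors, 12 genes of the superficial zone or 14 protease inhibitors. The same holds for 26 ribosomal proteins, 25 genes of cholesterol and fatty acid synthesis, 21 heat shock genes and 10 imprinted growth genes. Most members of these lists lay above log2 8, where 4.1% of all genes were called. At an unadjusted p under 0.05, 2196 of the 9150 genes passed.

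**Figure D3:**
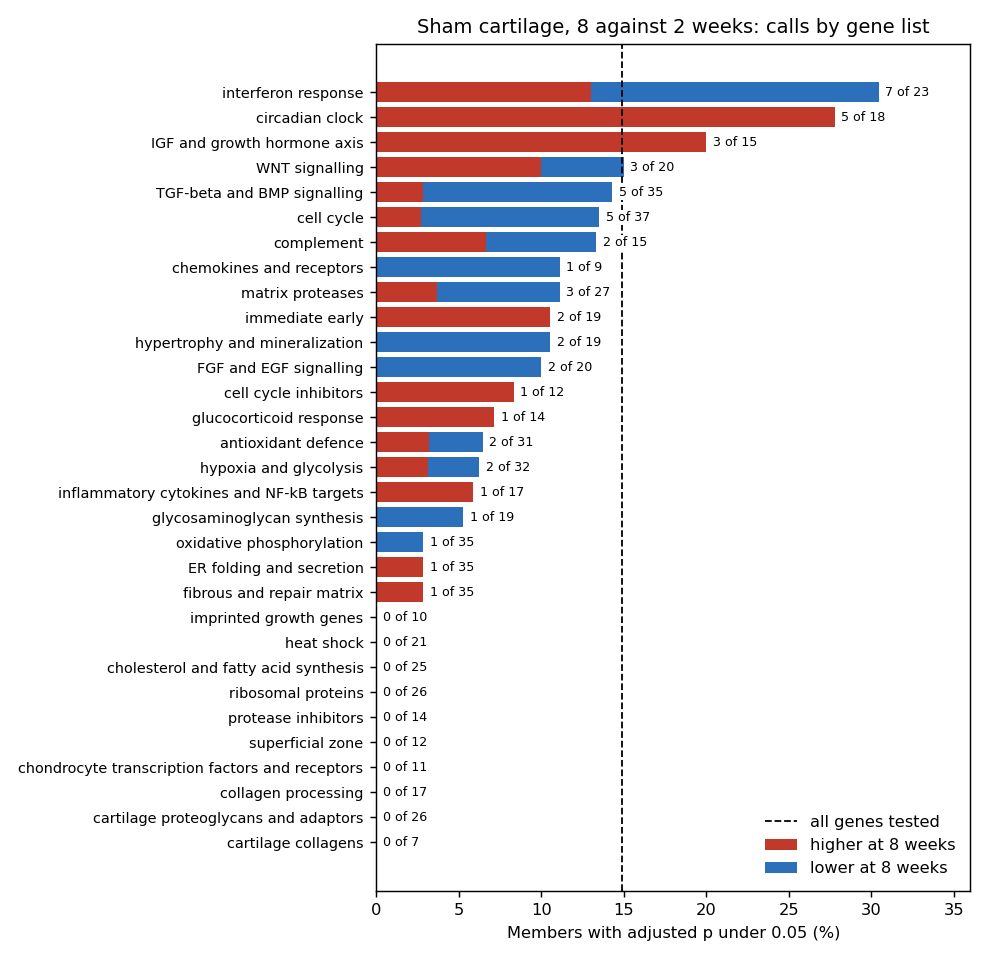
Share of the tested members called (percent, linear axis) in 31 gene lists, with red for higher and blue for lower at 8 weeks, counts beside the bars and a dashed line at 14.9%, the share over all genes. The interferon list has 7 of 23 called, the clock list 5 of 18, and the cartilage collagens 0 of 7.

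Of 27 matrix proteases 3 were called, namely Mmp3 and Adam17 as above and Mmp24. Mmp24, a membrane-type metalloproteinase, rose by 0.46 ± 0.11 (limma adjusted p = 0.037), from 8.07, 8.24 and 8.14 to 8.73, 8.42 and 8.67. Without any 1 of 5 arrays, that is every sham array but sham 8 weeks replicate 2, its adjusted p was 0.0745 to 0.122. Mmp13, the main collagenase of cartilage, read 14.94, 14.80 and 15.01 at 2 weeks and 13.92, 14.80 and 14.59 at 8 weeks (difference -0.48, adjusted p = 0.267). In OA the same probe set fell by 2.95. The 3 called proteases are 11.1% of the list, beside 14.9% over all genes. All 3 were among the 21 members at log2 8 or more, where 4.1% of all genes were called. The median over the 27 proteases was -0.07 in sham and -0.50 in OA, and the sham median was 0.12 without sham 8 weeks replicate 1 and also above 0 without sham 2 weeks replicate 1.

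Near matrix turnover, 1 of 19 genes of glycosaminoglycan synthesis and 2 of 19 genes of hypertrophy and mineralization changed. These are 5.26% and 10.5%, beside 14.9% over all genes. Chst12, a chondroitin sulfotransferase, fell by 1.23 ± 0.06 (limma adjusted p = 9.63e-05). Sgms2, a sphingomyelin synthase, fell by 2.76 ± 0.34 and Slc20a2, a phosphate transporter, by 0.51 ± 0.08. All 3 had mean values under 8. Col15a1 was the 1 of 35 genes of fibrous and repair matrix that was called (2.86%).

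The circadian list holds the transcription loop in which CLOCK and BMAL1 switch on their own repressors, the period and cryptochrome genes, and the REV-ERB genes. Of 18 members, 5 rose and 0 fell, beside 14.9% called over all genes. The 5 were 5 of the 6 members with a mean under log2 8, and 0 of the 12 brighter members were called. Over all genes the shares were 45.5% under 8 and 4.1% above. Per1 and Hlf exceeded log2 4 in the 8-week arrays only, so they had to differ to pass the filter, and 3 of the other 16 members were called. The hour at which tissue was taken is not given in the sources used here.

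Per1, a period repressor, was at 3.55, 3.59 and 3.50 at 2 weeks and at 7.02, 6.76 and 6.79 at 8 weeks in sham, a rise of 3.31 ± 0.10 (limma adjusted p = 2.41e-05). In OA Per1 read 4.06, 3.62 and 3.47 and then 7.10, 7.85 and 7.74. Both sets of 8-week arrays lay above both sets of 2-week arrays. Per3, a second period gene, rose by 1.41 ± 0.14, from 4.95, 4.94 and 5.16 to 6.49, 6.63 and 6.17. Hlf, an output factor of the clock, rose by 2.01 ± 0.24, from 2.94, 2.93 and 2.80 to 4.35, 5.16 and 5.18. Csnk1e, the kinase that marks period proteins for decay, rose by 0.91 ± 0.06.

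Nr1d1, REV-ERB alpha, which represses Bmal1, read 5.61, 4.73 and 4.15 at 2 weeks and 6.47, 6.48 and 6.49 at 8 weeks. It was the fifth of its list by p and was picked after its value was seen. Nr1d1 rose by 1.65 ± 0.36 (limma adjusted p = 0.029), and the adjusted p was 0.0808 to 0.102 without sham 2 weeks replicate 2 or any 1 sham array of 8 weeks. All 5 genes were also called higher in OA. The bright members did not pass the test in sham. Bmal1 read 10.06, 9.81 and 10.18 and then 10.26, 9.67 and 9.77, and the brightest probe set of Clock differed by 0.20 (adjusted p = 0.271).

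**Figure D4:**
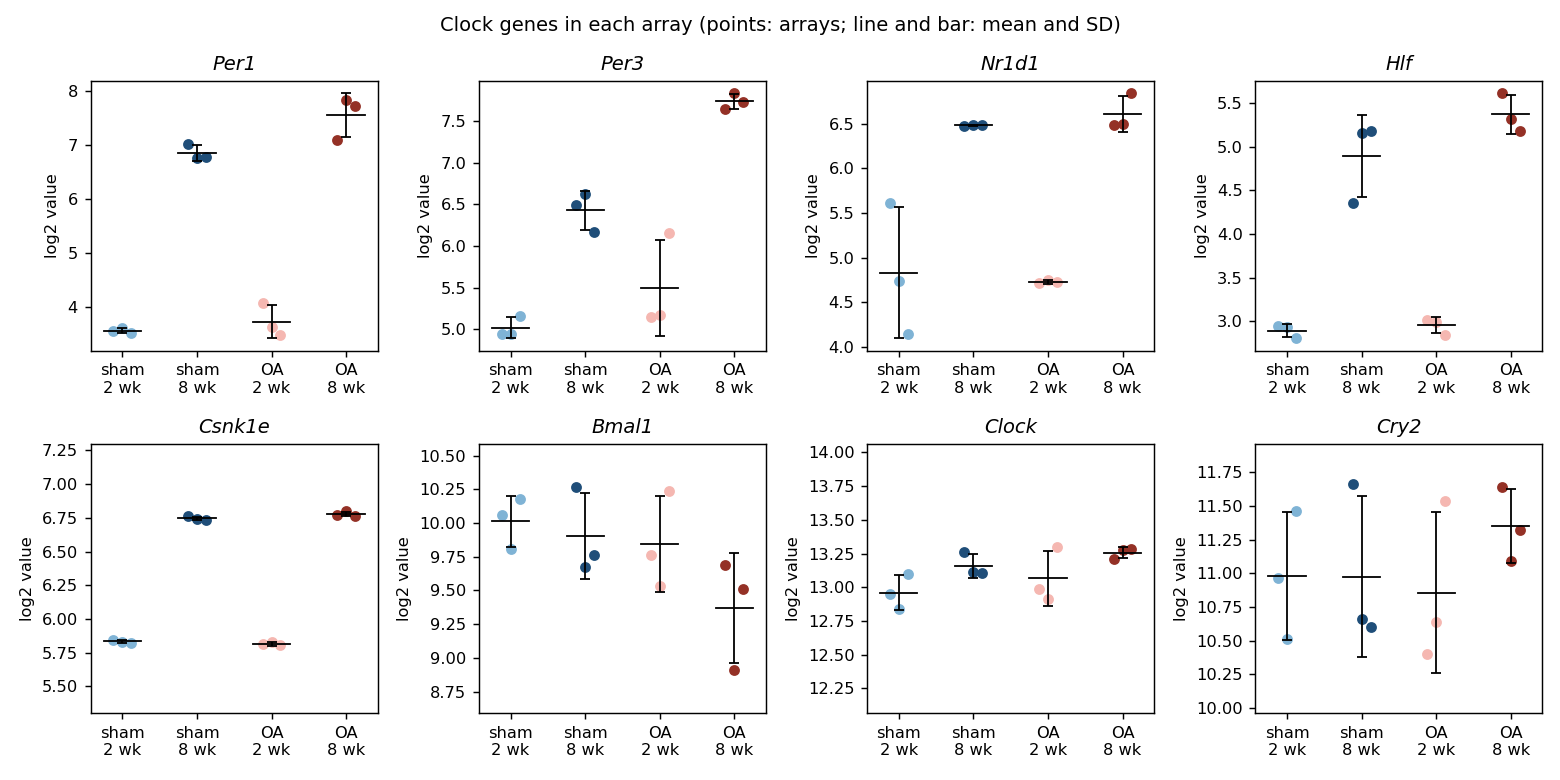
Log2 values (linear axes) of 8 clock genes in each of the 12 arrays, with a line and bar for the mean and SD of 3 arrays. Per1, Per3, Nr1d1, Hlf and Csnk1e are higher at 8 than at 2 weeks in sham and in OA, while the sham arrays of Bmal1 and Cry2 overlap.

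The promoters of Nr1d1 and Bmal1 are shown because they carry the letters through which the loop is known to close. The E-box CACGTG is bound by CLOCK and BMAL1, and the ROR element, AGGTCA directly after AANT, is bound by the ROR activators and by REV-ERB alpha. The sequences are the 250 bases before a start site, from RefSeq on build GRCr8, read on the strand of the gene, and capitals mark the motif. The Nr1d1 window, 1 of 2 start sites, is chr10:84229455-84229704 on the minus strand and holds its E-box at -191. The Bmal1 window is chr1:176766078-176766327 on the plus strand and holds its ROR element at -19.
Nr1d1: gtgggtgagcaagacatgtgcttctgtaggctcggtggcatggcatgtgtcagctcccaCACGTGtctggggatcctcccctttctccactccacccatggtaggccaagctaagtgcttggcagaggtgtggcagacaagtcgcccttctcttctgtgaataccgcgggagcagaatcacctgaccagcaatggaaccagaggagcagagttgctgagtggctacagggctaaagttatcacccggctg
Bmal1: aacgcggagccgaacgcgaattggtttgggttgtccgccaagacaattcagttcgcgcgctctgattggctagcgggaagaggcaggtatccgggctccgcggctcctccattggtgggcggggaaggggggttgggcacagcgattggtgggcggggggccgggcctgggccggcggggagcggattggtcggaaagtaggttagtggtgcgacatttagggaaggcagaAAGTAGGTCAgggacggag
Both motifs were searched on both strands. Of 15 clock genes with a window, 4 held the E-box (Nr1d1, Tef, Bhlhe40 and Bhlhe41), beside 5.59% of 33469 windows of all genes, and 1 held the ROR element, beside 0.206%. Of the 4 genes with an E-box in the window, only Nr1d1 was called in sham, and these matches are a description of the letters.

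Among 37 cell cycle genes, 1 rose and 4 fell (13.5%, beside 14.9% over all genes). The median difference was 0.01, whose sign changed under quantile normalization and equalized medians, and it ranged from -0.31 to 0.25 over the alternatives. Birc5 and Tyms exceeded log2 4 at 2 weeks only and so had to differ, and 3 of the other 35 were called. All 5 had means under 8, and 0 of the 25 brighter members were called. Birc5, survivin, which acts in chromosome segregation, read 5.59, 5.59 and 5.52 at 2 weeks and 2.63, 2.82 and 2.83 at 8 weeks, and fell by 2.81 ± 0.09 (limma adjusted p = 2.49e-05). Aurkb, the kinase that works in the same complex as survivin, fell by 2.06 ± 0.26. The nucleotide synthesis genes Tyms and Tk1 fell by 1.17 ± 0.13 and 0.68 ± 0.06, and a second probe set of Tk1 differed by 0.06 (adjusted p = 0.915).

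Mcm5, a subunit of the replicative helicase picked after its value was seen, rose by 1.02 ± 0.21, and without any 1 sham array of 2 weeks its adjusted p was 0.0562 to 0.0792. In the OA arrays 30 of the 37 cell cycle genes were called lower, beside 11.1% of all genes. Their OA median was -1.48, beside 0.04 over all genes. Rb1, the retinoblastoma gene that restrains entry into S phase, was the 1 of 12 cell cycle inhibitors that rose, by 0.82 ± 0.10 (limma adjusted p = 0.00261).

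The interferon list had 3 rises and 4 falls among 23 members (30.4%, beside 14.9% over all genes). Of its 15 members under log2 8, 6 were called, beside 45.5% of all genes at that level. Tap1 and Tapbp passed the filter through the arrays of 1 time only, and 5 of the other 21 members were called. The median difference was -0.29, and it was 0.20 without sham 8 weeks replicate 1. Mx2, an antiviral GTPase, read 6.47, 6.55 and 6.40 and then 4.27, 4.80 and 4.54, and fell by 1.94 ± 0.15 (limma adjusted p = 0.000428). Oasl, of the oligoadenylate synthetase family, fell by 1.44 ± 0.10 and Psmb10, an immunoproteasome subunit, by 0.97 ± 0.10. Tap1, the peptide transporter of antigen presentation, rose by 0.88 ± 0.10.

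The other 3 calls of the interferon list were picked after their values were seen. Rsad2, viperin, fell by 2.02 ± 0.47, Stat2 rose by 0.28 ± 0.06 and Tapbp rose by 0.29 ± 0.07. Stat2 and Tapbp lost the call without any 1 of the 6 sham arrays, with adjusted p of 0.0658 to 0.11 and 0.0657 to 0.126. Rsad2 lost it without any 1 sham array of 2 weeks or without sham 8 weeks replicate 2 (0.0747 to 0.118).

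Growth factor pathways had a few calls in both directions, and the medians of the lists for TGF-beta and BMP, WNT and IGF signalling were -0.02, 0.02 and 0.03, beside 0.08 over all genes. All 3 medians changed sign under some alternative, with ranges of -0.12 to 0.11, -0.06 to 0.12 and -0.05 to 0.12. In the list of TGF-beta and BMP signalling, into which Tgfa was also put although its product acts on the EGF receptor, 1 of 35 members rose and 4 fell (14.3%, beside 14.9% over all genes). Chrdl1 and Smad6 passed the filter through the arrays of 1 time only, and 3 of the other 33 were called. Chrdl1, a BMP antagonist, rose by 1.45 ± 0.07 (limma adjusted p = 7.99e-05), from 3.24, 3.25 and 3.20 to 4.74, 4.66 and 4.63. The BMP antagonist Chrd fell by 0.62 ± 0.07, and the inhibitory SMAD gene Smad6 fell by 0.78 ± 0.06. Smurf1, a ubiquitin ligase for SMAD proteins picked after its value was seen, fell by 0.42 ± 0.09 and lost the call without sham 2 weeks replicate 1 or 3 or sham 8 weeks replicate 2 or 3 (adjusted p = 0.0682 to 0.0866). Tgfa was the only one of the 5 with a mean above 8.

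In the WNT list 2 of 20 members rose and 1 fell (15%, beside 14.9% over all genes), all among the 6 members with means under 8. Gsk3b, the kinase that marks beta-catenin for decay, rose by 2.33 ± 0.10 (limma adjusted p = 5.39e-05), from 4.32, 4.21 and 4.51 to 6.69, 6.64 and 6.69. Fzd1, a WNT receptor, rose by 1.61 ± 0.10. Tcf7, a transcription factor of the pathway, fell by 1.86 ± 0.37, and its adjusted p was 0.0526 to 0.0603 without sham 2 weeks replicate 1 or 2 or sham 8 weeks replicate 3.

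In the IGF list 3 of 15 members rose and 0 fell (20%, beside 14.9% over all genes, or 9.89% higher). Igf2bp2 and Irs1 exceeded log2 4 at 8 weeks only and so had to differ, and 1 of the other 13 was called. Igf2bp2, an RNA-binding protein of Igf2 transcripts, rose by 2.03 ± 0.07 (limma adjusted p = 2.86e-05), from 3.51, 3.49 and 3.45 to 5.53, 5.48 and 5.53. The difference in OA was also 2.03. Irs1, the adaptor of the insulin and IGF receptors, rose by 0.98 ± 0.09. Stc2, which blocks the cleavage of IGF-binding proteins, rose by 0.91 ± 0.19 and lost the call without any 1 sham array but sham 2 weeks replicate 3 (adjusted p = 0.0516 to 0.0731). All 3 genes were among the 6 members of the list with a mean under 8.

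Among 19 immediate early genes 2 rose and 0 fell, beside 14.9% over all genes. They were Nr4a2 and Atf3, which rose by 1.33 ± 0.25 and 2.01 ± 0.47 (limma adjusted p = 0.0169 and 0.0358). Nr4a2 lost the call without sham 2 weeks replicate 2 or sham 8 weeks replicate 1 or 2 (0.0577 to 0.0657), and Atf3 without any 1 sham array but sham 8 weeks replicate 1 (0.078 to 0.113). In OA 9 of the 19 rose, beside 13.1% of all genes called higher there, and Nr4a2 rose by 4.04.

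In the complement list 1 of 15 members rose and 1 fell (13.3%, beside 14.9% over all genes). Cfp, properdin, rose by 1.24 ± 0.08, and C3, the central component, fell by 1.98 ± 0.46. C3 kept its call only when sham 2 weeks replicate 3 was the array left out (0.0718 to 0.121 otherwise). Among 31 antioxidant genes 1 rose and 1 fell (6.45%). Gstm1, a glutathione transferase, rose by 1.25 ± 0.06 and Gclc, of glutathione synthesis, fell by 1.20 ± 0.17. Cx3cl1, the chemokine fractalkine, was the 1 of 9 chemokines and receptors that was called (11.1%), and fell by 0.74 ± 0.06. All the called genes of these lists had means under log2 8, where 45.5% of all genes were called. C3 and Gstm1 passed the filter through the arrays of 1 time only and so had to differ.

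The list of hypoxia and glycolysis had 2 of 32 members called, ER folding and secretion 1 of 35, oxidative phosphorylation 1 of 35, and NF-kB targets and cytokines 1 of 17, all below the 14.9% over all genes. Pfkl, a phosphofructokinase, fell by 0.90 ± 0.06, and Trib3, a target of the ER stress response, rose by 0.59 ± 0.08 (limma adjusted p = 0.000295 and 0.00468). Hk1, a hexokinase, rose by 0.83 ± 0.18, Ndufa4, a subunit of the respiratory chain, fell by 0.36 ± 0.08, and Birc3, an NF-kB target, rose by 0.78 ± 0.20. Ndufa4 lost its call without any 1 of the 6 sham arrays (0.0546 to 0.0903). Hk1 kept it only without sham 2 weeks replicate 3 (0.0756 to 0.102 otherwise), and so did Birc3 (0.0606 to 0.153 otherwise).

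The largest differences lay at low signal. Among genes with both means above log2 4, Phf1, a Polycomb-associated protein, rose most, from 4.15, 4.15 and 4.14 to 7.79, 7.76 and 7.78 (3.63 ± 0.06, limma adjusted p = 1.97e-05). In OA Phf1 rose by 3.68, and its 12 values fell into 2 tight groups by time alone. Maip1, a mitochondrial protein, rose by 3.34 ± 0.12. The other large rises in this range were those of Fcsk (2.91), Cwc25 (2.87), RT1-M3-1 (2.73), Dzip1 (2.64), Tshz2 (2.61), Nenf (2.55), Mok (2.53) and Ldb3 (2.49).

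Megf6 fell most in the same range, from 8.78, 8.82 and 8.15 to 4.01, 5.40 and 4.27 (difference -4.03 ± 0.41, limma adjusted p = 0.00136). Slc7a8, an amino acid transporter, fell by 3.08 ± 0.38 and Naa60, an acetyltransferase, by 2.77 ± 0.07. Plvap and Sgms2 are described with their lists. Muc5b, Mtcl2, Adgrd1, Olfml2a and Peg12 had differences between -2.73 and -2.51. Olfml2a lost its call without any 1 sham array of 2 weeks (0.0758 to 0.0891).

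Other genes crossed log2 4, except Gemin6, which is named here for its small p and had means of 7.82 and 5.43. Of those named next, all but Cd33, Ucp2 and Gemin6 passed the filter through the arrays of 1 time only and so had to differ. Of the 905 rises, 224 started from a 2-week mean under 4, and of the 460 falls, 120 ended at an 8-week mean under 4. Znf780b, a zinc finger gene, read 8.08, 7.90 and 7.78 and then 2.76, 2.79 and 2.82 (difference -5.13 ± 0.10, limma adjusted p = 2.24e-05), with -5.30 in OA. Cd33, a lectin of myeloid cells, fell by 3.82 ± 0.36, Prkch by 3.23 ± 0.11 and Sstr2, a somatostatin receptor, by 2.86 ± 0.32.

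Ucp2, an uncoupling protein of mitochondria, fell by 2.63 ± 0.58 and kept its call only without sham 8 weeks replicate 3 among the arrays left out (0.0563 to 0.103 otherwise). Scmh1, a Polycomb protein, rose by 3.96 ± 0.07 and Ppargc1a, the coactivator of mitochondrial biogenesis, by 3.43 ± 0.08. Slc24a2, Trpv6, Pdlim5 and Synpo2 rose by 2.99, 2.76, 2.77 and 2.74. For Synpo2 the adjusted p was 0.108 when all 12 arrays shared 1 fit. Gucy2c, Nhlh1 and Gemin6 had small errors too, with falls of 2.72, 2.56 and 2.39.

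Markers of other cell types were read in the same arrays, since a knee sample can hold muscle, vessel, synovium and bone. In bulk tissue fewer cells of a type and less RNA per cell cannot be told apart. Skeletal muscle had 3 of 14 tested markers called higher and 0 lower (21.4%, beside 14.9% over all genes and 9.89% higher). Myoz1 and Atp2a1 exceeded log2 4 in the 8-week arrays only and so had to differ, and 1 of the other 12 was called. Myoz1, of the sarcomere, read 2.77, 2.96 and 2.74 at 2 weeks and 8.74, 6.70 and 7.04 at 8 weeks, and rose by 4.67 ± 0.54 (limma adjusted p = 0.00231). Atp2a1, the calcium pump of fast muscle, rose by 5.59 ± 1.39 (adjusted p = 0.0446), and read 10.64, 4.94 and 7.33 at 8 weeks. Ldb3, of the Z-disc, rose by 2.49 ± 0.38, with an adjusted p of 0.206 when all 12 arrays shared 1 fit.

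The mean over all 30 muscle markers on the array was 4.44 to 5.23 at 2 weeks and 4.91 to 8.15 at 8 weeks, and these ranges overlap. The highest array was sham 8 weeks replicate 1, and 8 of the 30 markers were not above log2 4 in any sham array. The call of Atp2a1 was lost without any 1 sham array of 2 weeks or sham 8 weeks replicate 3 (0.115 to 0.128). In OA the 8-week arrays reached means of 7.62 to 12.31. The part of muscle RNA in other differences was not tested.

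Of 9 tested endothelial markers 2 fell (22.2%, beside 14.9% over all genes). Of the 9, 6 had means under log2 8, where 45.5% of all genes were called. Plvap, of the endothelial diaphragm, read 7.92, 8.03 and 7.89 and then 4.69, 4.89 and 4.91, and fell by 3.12 ± 0.09 (limma adjusted p = 2.41e-05). Egfl7, a protein secreted by endothelium, fell by 1.47 ± 0.11. Of the 9 markers, 8 had a difference below 0. The mean over the 14 endothelial markers on the array was 5.74 to 5.97 at 2 weeks and 4.76 to 5.57 at 8 weeks, with no overlap, and 4 of them were not above log2 4 in any sham array.

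Of 20 macrophage markers only Csf1r, the receptor that macrophages need to survive, was called (5%, beside 14.9% over all genes). Csf1r fell by 1.91 ± 0.30 (limma adjusted p = 0.00805), from 10.50, 10.71 and 10.19 to 7.93, 8.77 and 8.96. The mean over the 23 macrophage markers was 7.62 to 9.41 at 2 weeks and 6.78 to 9.40 at 8 weeks, so these ranges overlapped in sham. In OA 17 of the 20 were called lower, beside 11.1% of all genes. The OA means were 8.13 to 9.05 at 2 weeks and 6.01 to 6.26 at 8 weeks.

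Among markers of synovial fibroblasts and tendon, 2 of 12 fell (16.7%, beside 14.9% over all genes). Cd248 exceeded log2 4 at 2 weeks only and so had to differ. Cd248, of stromal fibroblasts, fell by 2.30 ± 0.06 and Tnmd, tenomodulin, by 1.71 ± 0.30 (limma adjusted p = 2.41e-05 and 0.0127). Tnmd lost the call without sham 2 weeks replicate 1 or sham 8 weeks replicate 3 (0.0514 to 0.0547). None was called of 8 osteoclast, 12 osteoblast and osteocyte, 9 neutrophil and marrow myeloid or 6 smooth muscle and pericyte markers. The mean over 10 osteoclast markers was 9.40 to 9.93 at 2 weeks and 9.45 to 9.74 at 8 weeks in sham. Over 14 osteoblast and osteocyte markers it was 10.73 to 11.24 and 10.78 to 10.98. Some were bright, with highest sham values of 15.67 for Ibsp and 14.95 for Ctsk, while 2 of each list stayed at or under log2 4. The part of bone RNA in these samples was not tested. Both tested mast cell markers fell, Hdc by 0.94 and Tpsb2 by 0.61, at means under log2 5, and 7 of the 9 on the array were not above log2 4 in any sham array. Hdc and Tpsb2 exceeded log2 4 at 2 weeks only, as did genes of which 96.3% were called, so this count shows nothing beyond the filter.

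In the smallest marker lists 1 of 3 T and B cell, 1 of 5 erythroid, 1 of 5 nerve and Schwann cell and 2 of 5 adipocyte markers were called, beside 14.9% over all genes. Prx, Cidea and Lipe exceeded log2 4 at 8 weeks only and so had to differ. The T cell gene Cd3e fell by 0.91 ± 0.11 (limma adjusted p = 0.00295), and the red cell gene Slc4a1 fell by 0.76 ± 0.14, which was lost without sham 8 weeks replicate 2 or 3 (0.0572 to 0.0586). The Schwann cell gene Prx rose by 0.57 ± 0.07. The fat cell genes Cidea and Lipe rose by 1.46 ± 0.11 and 0.90 ± 0.16, and Lipe was lost without sham 2 weeks replicate 1 (0.055). Cidea had an adjusted p of 0.115 when all 12 arrays shared 1 fit.

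Most genes called in sham were called in the same direction in OA over the same interval. Of the 905 sham rises, 643 (71%) were also called higher in OA, which is 53.8% of the 1195 OA rises (13.1% of all genes). Of the 460 falls, 358 (77.8%) were also called lower, which is 35.3% of the 1015 OA falls (11.1%). In OA 24.2% of the 9150 genes were called, in either direction. That share was 54.5% of all genes with a sham mean under log2 8, where 718 of the rises and 370 of the falls lay. At log2 8 or more it was 13.4%. None of the sham rises was called lower in OA, and Tgfa was the only sham fall called higher. Over the 9150 genes the differences correlated with Pearson's r of 0.772 and Spearman's rho of 0.624, which describes genes and not independent replicates. The comparisons share no array, but any processing that followed the time would be common to them.

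**Figure D5:**
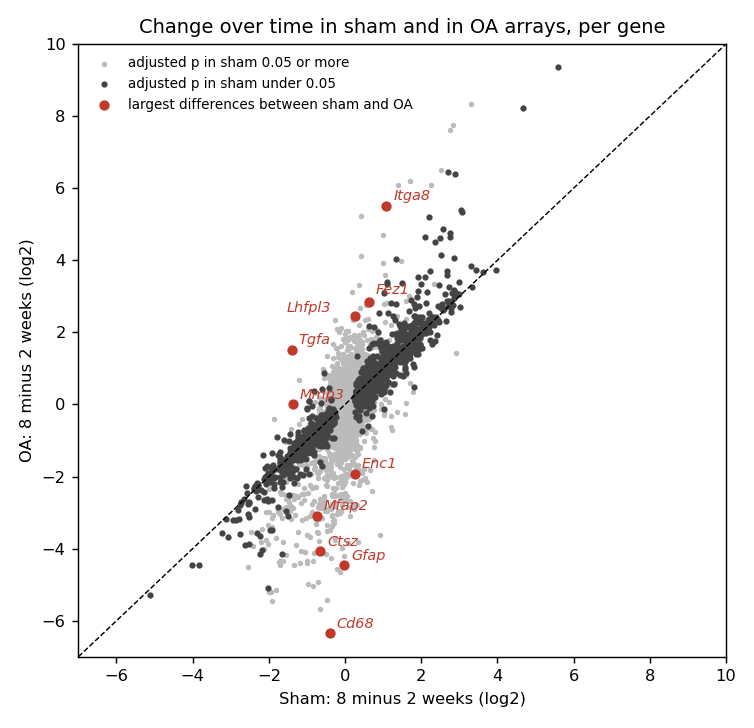
Log2 difference between 8 and 2 weeks for each of 9150 genes in sham (x axis) and OA (y axis), both linear, with the dashed line at equal change, dark points for genes called in sham and red points for the 10 named differences. Tgfa lies at -1.40 in sham and 1.52 in OA, and Cd68 at -0.40 and -6.35.

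The difference of the time change between sham and OA was tested itself. It was called for 21 of 15654 probe sets (0.134%) and for 15 genes (0.164%). Tgfa differed by -2.92 ± 0.21 (sham change minus OA change, limma adjusted p = 0.000955) and Mmp3 by -1.39. The call of Mmp3 held only without sham 8 weeks replicate 1 or OA 8 weeks replicate 1 or 3, and was lost without any 1 of the other 9 arrays and with the replicate block (adjusted p up to 0.12). Adam17 was not called (adjusted p = 0.102). For Itga8, an integrin subunit, the sham rise of 1.07 stood beside an OA rise of 5.51. Itga8 exceeded log2 4 in the sham arrays of 8 weeks only, so it had to differ in sham to pass the filter. Cd68, a lysosomal protein of macrophages, read 9.24, 9.69 and 9.30 and then 7.86, 9.21 and 9.95 in sham, and went from 9.27, 8.83 and 8.57 to 2.26, 2.39 and 2.98 in OA.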

How the data were processed

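Total RNA of 12 cartilage samples was read on Affymetrix arrays. The deposited values are log2 signals of 31099 probe sets, and the submitters' processing notes name GCRMA, with its version not given in the sources used here. No further normalization was added. The 57 control probe sets were left out, and 15654 probe sets above log2 4 in at least 3 of the 6 sham arrays were kept. GCRMA compresses values near its floor. Of all probe sets, 20832 carried 1 gene symbol in the platform annotation, 436 several and 9831 none. The probe set with 1 symbol and the highest mean over the sham arrays stood for a gene.

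The comparison was fitted with limma 3.58.1 in R 4.3.3 (4 residual and 1.63 prior degrees of freedom), and p-values were adjusted over all probe sets. OA arrays were fitted likewise, and all 12 for the difference. Arrays of a group correlated at a mean of 0.974 to 0.987. The number of arrays limits the precision. In data simulated for the 15654 sham probe sets, 100 were changed by log2 1 and 100 by log2 2, with independent normal noise. Of these, 56 and 83 were recovered. In the data themselves 2938 probe sets were called, so the recovery there may differ.

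The members and 44 gene lists were chosen with earlier results of these data known. The lists hold 1075 genes, of which 718 were tested. The text names the 10 largest rises and falls without overlap and with both means above 4, the 5 highest that crossed 4 each way, the 5 smallest p each way, up to 4 members per list by p, cartilage markers, and the 5 largest differences from OA each way. Symbols starting with LOC or RGD were not named. Alternatives changed the filter, scaling, variance model, array weights, replicate block, the threshold (limma's treat against log2 1), arrays and probe set choice. Python 3.11.15 with pandas 2.3.3, numpy 2.4.6 and matplotlib 3.10.9 made tables and plots.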

Additional observations from a re-analysis of the deposited data

Results flagged for a closer look

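The change from 2 to 8 weeks differed between sham and OA arrays for 15 genes by limma's test of the difference itself. The 5 largest each way are given, as the sham change minus the OA change on the log2 scale. It was negative for Itga8 (-4.44), Tgfa (-2.92), Fez1 (-2.23), Lhfpl3 (-2.21) and Mmp3 (-1.39). It was positive for Enc1 (2.17), Mfap2 (2.35), Ctsz (3.42), Gfap (4.43) and Cd68 (5.94). Within sham, Mmp3 and the brighter probe set of Tgfa fell, while Itga8 and Fez1 rose by 1.07 and 0.62. Itga8 exceeded log2 4 in the sham arrays of 8 weeks only and so had to differ to be tested. The other 6 did not pass the test, with differences from -0.74 for Mfap2 to 0.26 for Lhfpl3. Itga8, Tgfa, Fez1, Enc1 and Cd68 kept the call when any 1 of the 12 arrays was left out. Lhfpl3 lost it for 8 of the 12 arrays, Mmp3, Mfap2 and Gfap for 9, and Ctsz for 10, with adjusted p up to 0.135. Groups of 3 arrays are too small for a test of single outlying arrays.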

How the results depend on the processing

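The 2938 probe sets and 1365 genes called in sham became 7928 and 3215 with no filter, 1272 and 646 with a filter at log2 6, and 567 and 249 with treat against log2 1. They ranged from 2217 to 2635 and from 1017 to 1202 when 1 array was left out. The OA count of 4523 probe sets became 2707 with the filter at log2 6. The 21 probe sets for the difference between sham and OA became 39 with quantile normalization and ranged from 7 to 78 without 1 array. That count was 78 without sham 8 weeks replicate 1, 33 and 37 without OA 8 weeks replicate 1 and 3, and 7 to 12 without any other array except OA 8 weeks replicate 2. Deviations of same-numbered arrays of the 2 times from their group means had correlations of -0.51, 0.09 and -0.44. Deviations from a mean of 3 arrays are linked, so these values cannot settle whether the numbers pair the samples. With the replicate number as a block, 2062 probe sets and 936 genes were called in sham.

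Of 97 called genes named in the text, 66 kept the call under every alternative but treat, which lost 57. A single array left out lost 23, the replicate block 25, quantile normalization 6 and equalized medians 3. The sign turned for Tgfa with the mean over its probe sets (0.0207). It also turned for genes that were not called. Comp read -0.0039 with quantile normalization and -0.008 with equalized medians, and Col10a1 read -0.0172 with equalized medians. Leaving out 1 array gave -0.0023 to 0.101 for Comp, -0.0519 to 0.109 for Col10a1, -0.6284 to 0.4813 for Cnmd, -0.226 to 0.013 for Hapln1 and -0.2953 to 0.001 for Bmal1. The cause was not tested.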
